A study of Mus musculus with 8 samples.

Results

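The samples described here are the 3 PBS-treated mice of a series of 8 mice, taken by the titles of their samples. They were male hCYP1A mice, in which the CYP1A locus is humanized, on a C57BL/6 background, and they ate AIN93M diet. At 8 weeks of age each received PBS by gavage, and 24 hours later the lining of the colon was scraped off with a glass slide for RNA. PBS is the vehicle of the study's carcinogen arm, which is not compared here. Each mouse gave 1 array, so each mouse is 1 sample, there is no second group, and no test was run. Of 35078 mouse probes on the array, 17293 (49.3%) were marked by the scanner software as found on all 3 arrays. This mark sets no signal threshold: 9, 7 and 8 found mouse probes had signals under 1 in mice 1, 2 and 3. They named 9985 genes, 64.0% of the 15597 genes that have a named probe.

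The lining of the colon is a simple epithelium folded into crypts. Stem cells at the crypt base divide and feed absorptive colonocytes, mucus-filled goblet cells and rare hormone-secreting cells. The transcription factors Cdx1 and Cdx2 set intestinal identity, villin (Vil1) builds the brush border, and keratin 20 (Krt20) marks mature cells. The male accessory glands are also lined by simple epithelium, and are known for a few secretory proteins made in very large amounts under androgen control.

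The labels give colon epithelium for all 3 mice, and the arrays did not bear this out. Of the 16 epithelium markers, 10 were found on all 3 arrays (62.5%), a share near the 64.0% of all genes, and the median percentile of those 10 was 93.7. The bright ones belong to simple epithelia of many organs, while Krt20, Vil1, Cdx1, Cdx2 and the intestinal cadherin Cdh17 were found on none. The brightest spots included genes known from the secretions of the mouse prostate and seminal vesicle. The samples are therefore called the PBS mice below, by their treatment and not by a tissue. Which tissue the RNA came from was not tested.

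Signals below are the spot's median intensity minus the local background, in scanner units on a linear scale. Epcam, an adhesion protein of epithelia, had signals of 1439, 1496 and 1367 in mice 1, 2 and 3. Krt8, a keratin of simple epithelia, had 7568, 8748 and 9098. In contrast Vil1 had signals of 13, 13 and 4, and Cdx2 had 8, -2 and 10, none of them found. Pbsn, the gene of probasin, an androgen-dependent secretory protein of the mouse prostate, had signals of 37423, 44288 and 36919. Each of the 3 mice therefore had the same pattern, and no mouse carried it alone.

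The sequences upstream of 3 of these genes are shown because all 3 are known secretory genes of the male glands and were bright in at least 1 mouse. Svs5 and Svs6 encode seminal vesicle secretory proteins and lie near each other on chromosome 2. Svs5 was at or near the scanner's ceiling in every mouse, which hides any difference between mice, and Svs6 was bright in mouse 3 only, as given further on. Each line holds the 250 bases before the gene's start, from RefSeq on GRCm38.p6, read 5′ to 3′ on the gene's strand. Capitals mark TGTTCT or its reverse complement AGAACA, a half-site known from steroid hormone response elements.
Svs5 (chr2:164332515-164332764, plus strand): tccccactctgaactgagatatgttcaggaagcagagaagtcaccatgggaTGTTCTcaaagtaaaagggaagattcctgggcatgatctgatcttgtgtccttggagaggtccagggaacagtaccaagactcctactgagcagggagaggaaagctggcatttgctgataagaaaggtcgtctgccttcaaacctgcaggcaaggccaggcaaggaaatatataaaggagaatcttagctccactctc
Svs6 (chr2:164316501-164316750, plus strand): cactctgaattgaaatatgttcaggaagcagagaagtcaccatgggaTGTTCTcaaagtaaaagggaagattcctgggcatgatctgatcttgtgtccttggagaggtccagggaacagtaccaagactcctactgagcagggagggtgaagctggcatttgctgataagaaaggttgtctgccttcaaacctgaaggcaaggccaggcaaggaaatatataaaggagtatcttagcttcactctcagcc
Pbsn (chrX:77853501-77853750, minus strand): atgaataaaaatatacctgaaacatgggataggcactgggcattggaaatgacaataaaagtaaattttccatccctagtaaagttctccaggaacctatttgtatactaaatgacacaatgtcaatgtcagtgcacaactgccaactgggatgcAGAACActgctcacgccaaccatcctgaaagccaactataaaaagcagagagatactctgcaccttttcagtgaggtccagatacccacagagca

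Aligned end to end, the Svs5 and Svs6 stretches were identical at 237 of 254 alignment columns (93.3%). Each of the 3 stretches held 1 copy of the half-site. The lists added after the values were seen cover prostate, seminal vesicle, epididymis and vas deferens, and urothelium, the bladder lining. Of 20 genes of these added lists that have a promoter sequence, 11 held it. Over all genes with a promoter sequence the share was 18.2%. The added genes were chosen from these data and include near-copies such as Svs5 and Svs6. Whether they hold the half-site more often than other genes was therefore not tested. A match to these 6 letters is a description of the sequence.

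The 30 genes with the brightest spots were mainly of 2 kinds. Ribosomal proteins, the parts of the cell's protein-making machine, gave 16 of them. Genes of the added lists, which were chosen after the values were seen, gave 7. All 10 members of the prostate list were found on all 3 arrays. A spot's signal depends on its probe as well as its transcript, so this is an order of spots and not of transcript amounts. The top 10 genes held 4.56%, 4.36% and 4.55% of the summed signal of found genes in mice 1, 2 and 3, and the top 100 held 23.7%, 23.4% and 24.4%.

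Msmb, the gene of beta-microseminoprotein of prostate fluid, had signals of 65491, 65493 and 65490, saturated on all 3 arrays, so these are lower bounds. Tgm4, the prostate transglutaminase that cross-links the semen clot, had 59258, 59309 and 65491. Svs2, a main protein of that clot, had 58491, 63719 and 65490. Tgm4 and Svs2 were saturated in mouse 3. In all, 7 genes were saturated on at least 1 array, and they have no order among themselves. Sbp, which encodes spermine-binding protein, a secretory protein of the prostate, had 41136, 51909 and 44885.

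**Figure D1:**
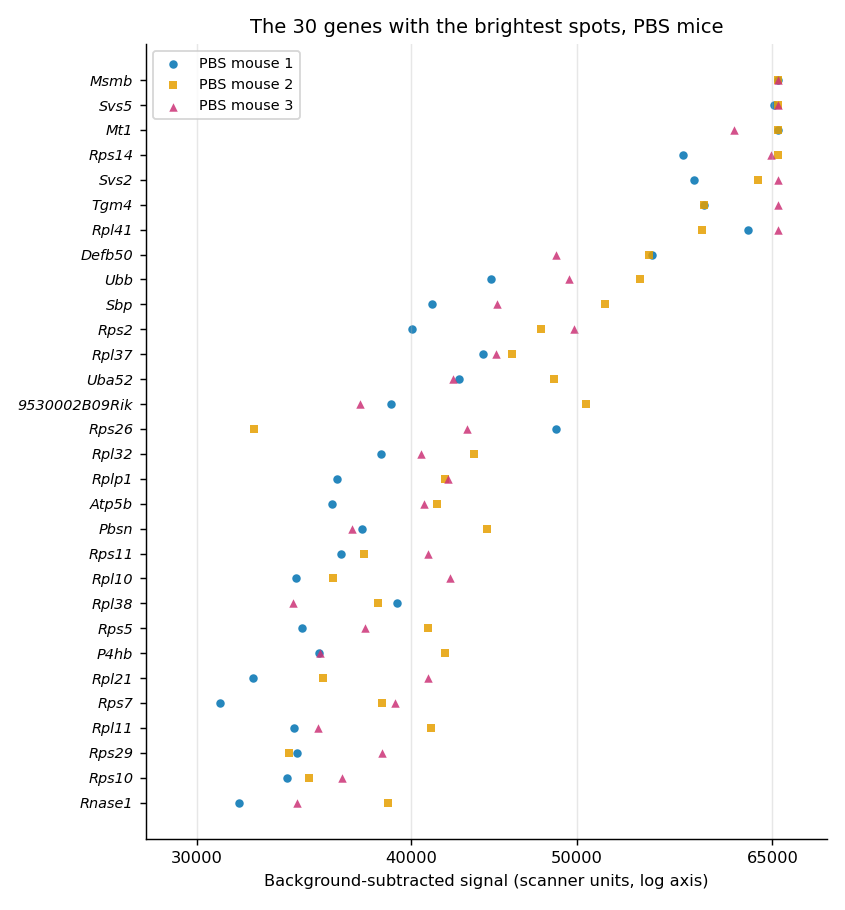
Background-subtracted signal (scanner units, log axis) of the 30 genes with the highest mean, 1 marker for each PBS mouse. The spots furthest right are at the scanner's ceiling, and Msmb (65490 to 65493) is there in all 3 mice, so the order of the 7 genes with a saturated spot is not defined.

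Among the other bright genes, Mt1, the metal-binding metallothionein, had signals of 65488, 65494 and 61768, saturated on 2 of the 3 arrays. The mitochondrial ATP synthase subunit Atp5b had 35962, 41395 and 40699, and P4hb, a disulfide isomerase of the endoplasmic reticulum, had 35322, 41864 and 35407. Atp5b and P4hb, which were not saturated, differed little between mice. Rps26 had the widest spread of the ribosomal proteins in the top 30, at 48626 in mouse 1, against 32374 in mouse 2 and 43096 in mouse 3.

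Many markers of the colon's own cell types were dim or not found. Of 15 colonocyte markers with a probe, 7 were found on all 3 arrays (46.7%), against 64.0% of all genes. Those 7 had a median percentile of 64.1, above the middle of the found genes. Carbonic anhydrase 1 (Car1), a colonocyte enzyme, had signals of 9, 12 and 3, and Car4 had 13, 12 and 16. Among those found, Car2 had 1621, 1739 and 2169, and the proton pump subunit Atp12a had 3901, 4972 and 3134. Slc26a3, the chloride exchanger of the colon surface, had 417, 410 and 233.

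Goblet cell markers split in the same way, with 5 of 12 found on all 3 arrays. The trefoil factor Tff3 had signals of 18, 10 and 9, Retnlb had -1, -2 and 2, and Atoh1, the transcription factor of the secretory lineage, had 1, 1 and -5. Agr2, a disulfide isomerase of mucus-making cells and of other secretory epithelia, had 7292, 3989 and 3352, and Spdef, a transcription factor of the same cells, had 1777, 1745 and 1563. Muc2 and Fcgbp, the main goblet cell products, have no named probe on the array and were not analysed here.

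**Figure D2:**
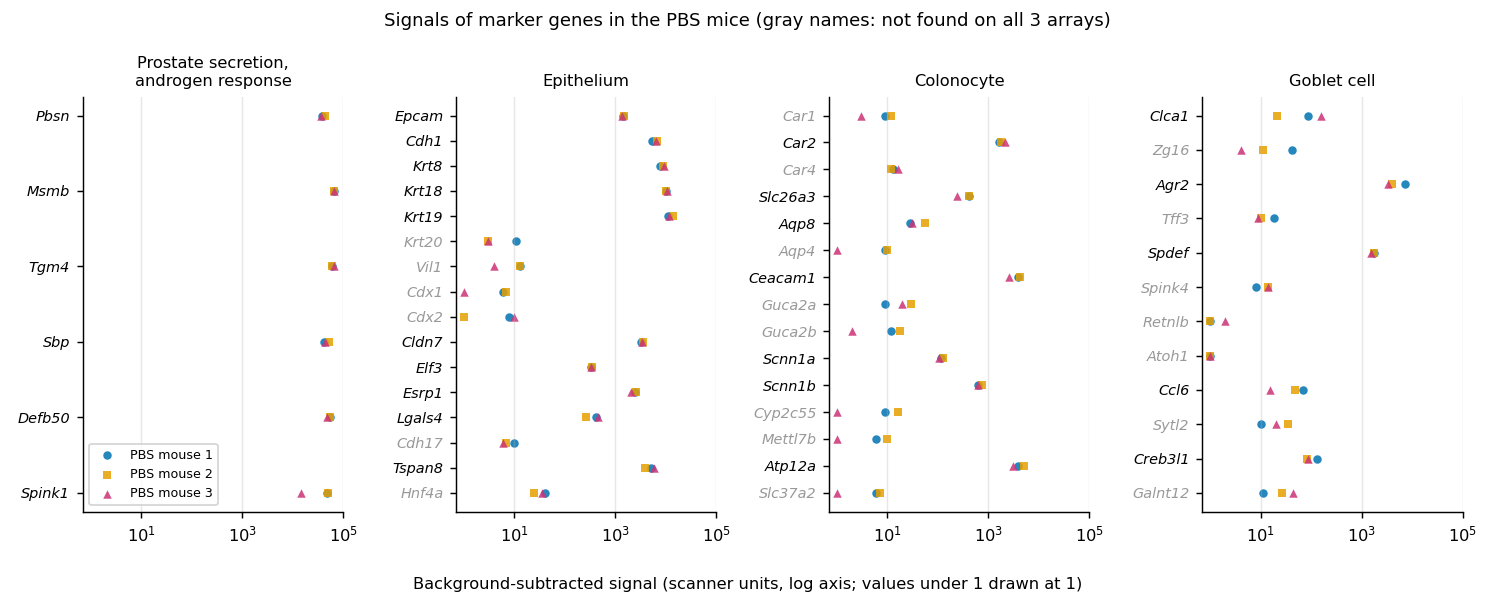
Signals (scanner units, log axis) of list members that have a probe (the first 6 of 10 of the prostate list, whose other members are not drawn and include dimmer ones, and all of the epithelium, colonocyte and goblet cell lists), 1 marker for each PBS mouse. Names in gray were not found on all 3 arrays, and the left panel, chosen after the values were seen, lies to the right of the colonocyte and goblet cell panels for most genes.

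Of 16 stem cell markers, 13 were found on all 3 arrays (81.25%), against 64.0% of all genes, with a median percentile of 44.9. Lgr5, the receptor that marks crypt base stem cells, was among the dimmest, at 59, 35 and 42, while Ascl2 was not found on any array. Prom1, found on many epithelial progenitors, had 6806, 9119 and 7627, and Sox9 had 1943, 2055 and 2324. Enteroendocrine markers were found for 5 of 16, and the hormone genes Gcg, Pyy, Insl5, Cck and Nts for none. The matrilysin Mmp7, a Paneth cell enzyme that other glands also make, was bright at 14698, 16454 and 9337, while the Paneth defensin Defa5 had -5, -3 and 1.

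The regional genes of the gut went both ways. Of 25 with a probe, 12 were found on all 3 arrays (48%), against 64.0% of all genes. Those 12 had a median percentile of 36.1, and 4 of them were in the brighter 50% of found genes. The genes named next are picked from those 4. Cdx1 and Cdx2, given above, are also in this list and were found on no array. Hoxb13, a homeobox gene of the hindgut and the prostate, had 1652, 1931 and 1885, and Foxa1, a factor of many endoderm glands, had 5524, 6404 and 3744. Hoxb9 had 930, 864 and 848.

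Markers of the cells that lie around an epithelium were present. Smooth muscle markers were found for 12 of 13, with a median percentile of 93.7 among the found genes. Myh11, the smooth muscle myosin, had 18250, 23383 and 22407, and Tpm2 had 26782, 32623 and 35184. Fibroblast markers were found for 19 of 19, with decorin (Dcn) at 13166, 13881 and 12889. In whole-sample RNA of this kind, more cells of a type and more RNA per cell cannot be told apart.

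Immune and blood cell markers were uneven. All 12 macrophage and dendritic cell markers with a probe were found, with Cd74 at 2302, 2014 and 2656 as the brightest. B and plasma cell markers were found for 1 of 11, and that one, Derl3, serves secretory cells in general. T cell genes Cd3d and Cd4 had signals of 3, 0 and 7 and of 5, 9 and 9. Haemoglobin (Hba-a1, whose near-identical copy can share its probe) had 8786, 10186 and 13080.

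The lists for protein synthesis, protein folding, oxidative phosphorylation and glycolysis were bright. Ribosomal protein genes were found for 51 of 53, with a median percentile of 99.5, and held 9.89%, 9.24% and 10.4% of the summed signal in mice 1, 2 and 3. Oxidative phosphorylation genes were found for 34 of 36 (median percentile 94.3), glycolysis genes for 14 of 14 (92.1) and genes of endoplasmic reticulum folding for 18 of 21 (92.2). In that last list Hspa5, the main chaperone of the endoplasmic reticulum, had signals of 7100, 9902 and 9031, and Pdia3 had 26904, 26936 and 24579.

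Cell division genes were often found but mostly dim. S phase genes were found for 18 of 21 (85.7%) with a median percentile of 33.9 among found genes. Genes of G2 and M phase were found for 15 of 20 (75%) with one of 18.9. The share over all genes was 64.0%. Pcna, the clamp of the replication fork, had 949, 866 and 920, and the topoisomerase Top2a had 186, 174 and 134. Mki67 has no named probe here, and the rate of cell division was not tested.

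Genes that handle foreign chemicals were mixed. Glutathione S-transferases were found for 18 of 20 with a median percentile of 86.1, led by Gstm1 at 17987, 29212 and 21065. Cytochromes P450 of families 1 to 4 and their partners were found for 12 of 23. The probes of mouse Cyp1a1 (-8, -2 and 7) and Cyp1a2 (17, 12 and 7) were found on no array, and the human genes of the humanized locus were not analysed here. The dioxin receptor Ahr was dim at 54, 91 and 67. Inflammatory cytokines and chemokines were found for 9 of 26, and Il1b, Il6 and Tnf on no more than 1 array.

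Most genes differed little between the 3 mice. Across the 9985 genes Pearson's r of normalized log2 signal was 0.981 for mice 1 and 2, 0.973 for mice 1 and 3 and 0.969 for mice 2 and 3. These are correlations across genes, which are not replicates. The median SD between mice was 0.21 on the log2 scale, and it was 0.32 in the dimmest 25% of genes and 0.15 in the brightest. The highest mouse was at least 2-fold above the lowest for 953 genes (9.54%) and at least 4-fold for 81 (0.811%).

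The steadiest genes of the brightest 25%, other than the saturated Msmb, were Abhd17a, Actg1 and Mrpl30. Abhd17a, a depalmitoylase, had signals of 1353, 1499 and 1384, and cytoplasmic gamma-actin (Actg1) had 1419, 1576 and 1453. Oxidative phosphorylation genes, with a median percentile of 94.3, had a median SD of 0.11. It was 0.21 for all genes and 0.15 for the brightest 25%. None of the 34 differed by 2-fold, against 9.54% of all genes and 3.84% of the brightest 25%. Much of their low spread thus goes with their high signal. The control spots of beta-actin (Actb, 20 spots) were lower in mouse 1 by a log2 difference of -0.70 ± 0.09 (SD over spots), whereas Actb's own mouse probe had 23927 in mouse 1, against 16818 in mouse 2 and 27275 in mouse 3. Probes of 1 gene can therefore disagree on which mouse is low.

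**Figure D3:**
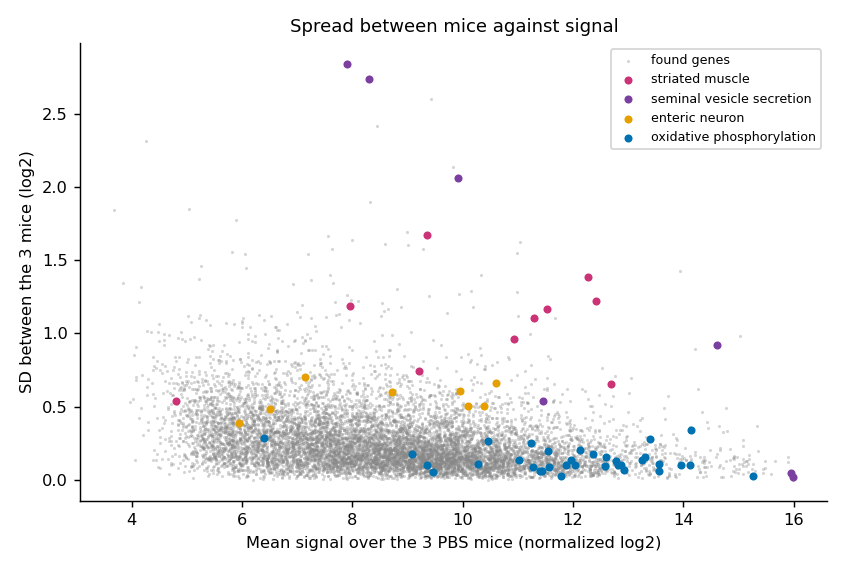
SD between the 3 mice (log2) against mean normalized log2 signal, with each found gene as a gray point and 4 lists in colour. The spread falls with signal from a median of 0.32 in the dimmest 25% to 0.15 in the brightest, and striated muscle and several seminal vesicle genes lie above it. The 2 seminal vesicle genes at the far right were saturated on 1 or 2 arrays.

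The scans of mice 1 and 2 are marked as re-dipped and that of mouse 3 is not, and its slide number lies in another range, per the names of the scans. Mouse, slide and re-dipping cannot be told apart in what follows. A gene is called when 1 mouse differs by at least 2-fold from the mean of the other 2. At any size of difference, 4505, 5346 and 5258 of all 9985 genes were above that mean in mice 1, 2 and 3. Mouse 3 was higher for 229 genes (2.29%) and lower for 143 (1.43%). In the authors' log2 matrix, which is scaled otherwise, mouse 3 was higher for 188 genes and lower for 180. Mouse 2 was higher for 96 (0.961%) and lower for 179 (1.79%), and mouse 1 was higher for 79 (0.791%) and lower for 132 (1.32%), against 95 higher and 102 lower in the authors' matrix.

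Mouse 3 stood apart by seminal vesicle genes. Svs3b had a signal of 2695 in mouse 3, against 123 in mouse 1 and 94 in mouse 2, 26.2-fold above their mean. Svs6 had 2188 in mouse 3, against 54 and 116 in mice 1 and 2 (28.8-fold). Ceacam10, a cell surface protein known from seminal vesicle secretion, had 4801 in mouse 3, against 352 and 519 in mice 1 and 2 (11.7-fold). In the seminal vesicle list, 4 of 7 found genes were called higher in mouse 3, against 2.29% of all genes. The median difference was 1.4 on the log2 scale, against 0.02 for all genes. This list was chosen after the values were seen, so its count and median describe the chosen genes and are no independent support.

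Further genes of the same list were found in mouse 3 alone. Svs1 had 1803 in mouse 3, against 16 and 15 in mice 1 and 2, at least 50.1-fold higher when the dim spots are set at the 5th percentile of found signals. Svs3a, a near-identical copy of Svs3b whose probe may read both, had 1358 in mouse 3, against 31 and 20 in mice 1 and 2, at least 37.9-fold higher. Svs2 was saturated in mouse 3 and Svs5 in mice 2 and 3, so whether they differed between mice cannot be seen. Svs4 had 49035 in mouse 3, against 13090 in mouse 1 and 25241 in mouse 2.

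Striated muscle genes were also higher in mouse 3. Of the 10 found genes of that list, 10 were above the mean of the other mice and 9 were called, with a median difference of 1.85. Over all genes, 5258 of 9985 were above that mean in mouse 3 and 2.29% were called higher. The cardiac actin gene Actc1 had 2420 in mouse 3, against 321 and 351 in mice 1 and 2, and the fast troponin Tnnt3 had 13890, against 2832 and 4130. The summed signal of the list was 60072 in mouse 3, against 15521 in mouse 1 and 19905 in mouse 2, and Myh7, the slow myosin, was found on no array. Fibroblast genes were above the others for 17 of 19, with 4 called and a median of 0.82: collagen Col1a1 had 10390 in mouse 3, against 3974 and 4886. The part of these cell types in the other differences of mouse 3 was not tested.

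**Figure D4:**
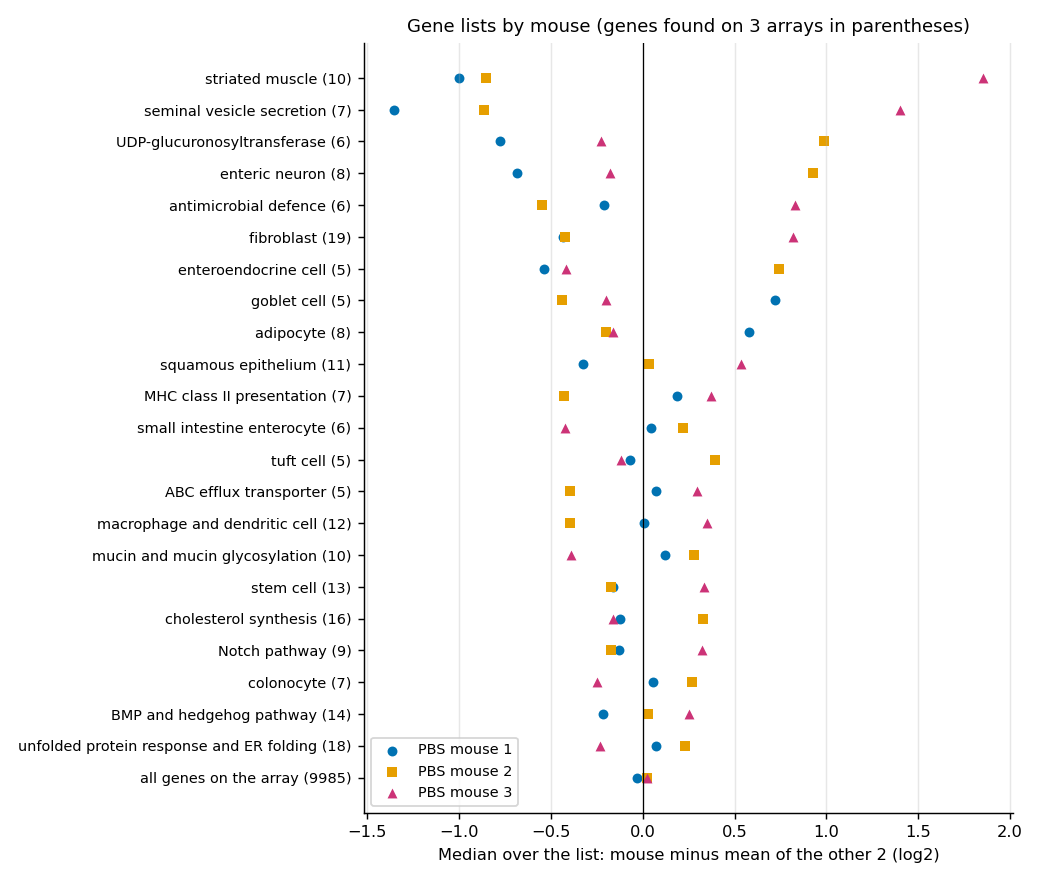
Median over each list of the difference between 1 mouse and the mean of the other 2 (log2), for the 22 lists of at least 5 found genes with the largest such value, and for all found genes at the bottom. Striated muscle (1.85) and seminal vesicle secretion (1.4) lie furthest right in mouse 3, and all genes lie near 0. The seminal vesicle list was chosen after the values were seen.

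Other genes were lower in mouse 3. Akr1b7, an aldose reductase-like enzyme abundant in the mouse vas deferens, had 4992 in mouse 3, against 32500 and 22739 in mice 1 and 2. Crisp1, a secretory protein of the epididymis, had 172 in mouse 3, against 1106 and 1257. The epididymal genes Adam7 and Lcn5 were found on no array. The protease inhibitor Spink1 had 14637, against 48106 and 50281. Of the 10 genes of the prostate list, Spink1 was the only one called in any mouse.

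Mouse 3 also differed in clock genes. Per2, a repressor of the circadian clock, had 160 in mouse 3, against 43 and 52 in mice 1 and 2, and Per3 had 300, against 122 and 136. Dbp, a clock output factor, had 1289 in mouse 3, against 604 and 575. Arntl, the activator of opposite phase, had 148, against 314 and 311. Of the 15 found clock genes 3 were called higher and 1 lower, against 2.29% and 1.43% of all genes. The labels give no hour of day for the collection.

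Of antimicrobial genes, 3 of 6 found were called higher in mouse 3, against 2.29% of all genes. Pglyrp1, which binds bacterial cell walls, had 1207 in mouse 3, against 279 and 95 in mice 1 and 2. Lcn2, which withholds iron from bacteria, had 4364, against 2014 and 1001. Pip, a secreted protein of exocrine glands that is not in the antimicrobial list, had 2062, against 73 and 291.

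Mouse 2 stood apart by nerve genes. All 8 found genes of the neuron list were above the mean of the other mice, 4 were called, and the median difference was 0.92. Over all genes, 5346 of 9985 were above that mean in mouse 2 and 0.961% were called higher. The synaptic protein gene Snap25 had 2782 in mouse 2, against 1210 and 1118 in mice 1 and 3, and Stmn2 had 1712, against 765 and 733. The summed signal of the list was 9447 in mouse 2, against 4166 in mouse 1 and 4732 in mouse 3. Chromogranin A and B (Chga and Chgb), carried in nerve and hormone granules, had 169 and 180 in mouse 2, against 72 and 41 in mouse 1 and 78 and 86 in mouse 3.

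UDP-glucuronosyltransferase genes were higher in mouse 2 for 6 of 6 found, with 2 called and a median of 0.99. Over all genes, 5346 of 9985 were higher in mouse 2 and 0.961% were called higher. UDP-glucuronosyltransferases attach glucuronic acid to drugs and bilirubin. Ugt1a1 had 1319 in mouse 2, against 494 and 651 in mice 1 and 3. All 6 are of the Ugt1a family, whose members share their last exons, so these probes are not independent. The uroplakin gene Upk3a, of the bladder lining, had 1169 in mouse 2, against 205 and 448. Ucp1, the heat-making protein of brown fat, had 1956 in mouse 2, against -2 in mouse 1 and 262 in mouse 3. Genes of MHC class II presentation were below the others in mouse 2 for 7 of 7 found, with H2-Aa at 1022, against 1982 and 2941.

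Mouse 1 differed in fat genes, in both directions, with 4 of 8 found adipocyte genes called higher and 1 lower. Of the 8, 5 were above the mean of the other mice, and the median difference was 0.58. Over all genes, 4505 of 9985 were above that mean in mouse 1, 0.791% were called higher and 1.32% lower. Cfd, the complement factor that adipocytes secrete, had 4253 in mouse 1, against 1615 and 2097 in mice 2 and 3, and adiponectin (Adipoq) had 1332, against 671 and 726. Cidea, a lipid droplet protein of brown fat, had 57 in mouse 1, against 629 and 192, and Ucp1, given above, was not found there. The summed signal of the list was 8865 in mouse 1, against 6064 and 5997. Xlr4b had 1253 in mouse 1, against 318 and 144. Prol1, a gene of secreted proline-rich protein, had 170 in mouse 1, against 1383 and 3144.

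**Figure D5:**
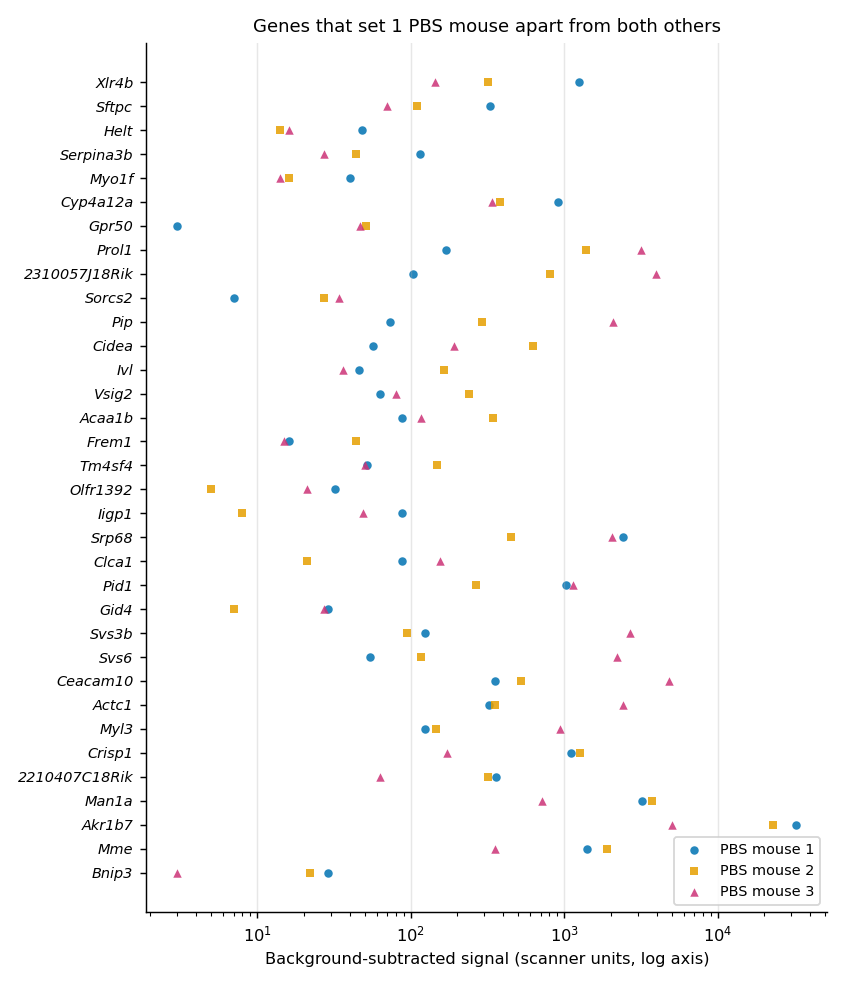
Signals (scanner units, log axis) of the genes that differ most in 1 PBS mouse from both others, by at least 2-fold from each, up to 6 higher and 6 lower for each mouse. Svs3b, Svs6 and Ceacam10 are bright in mouse 3 alone, and Akr1b7 and Crisp1 are dimmest there.

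Second probes give a limited check on these differences. In 2671 genes with several found probes, the second-brightest probe gave the same sign for 56 of 63 genes called in mouse 3, 32 of 46 in mouse 2 and 23 of 28 in mouse 1. By the second probe, 13 of the genes called in mouse 3 reached 2-fold, 13 in mouse 2 and 7 in mouse 1. Across the 2671 genes, the differences by the 2 probes had a Pearson's r of 0.30, 0.29 and 0.38 in mice 1, 2 and 3. The median gap between the 2 probes was 0.26, 0.28 and 0.33 on the log2 scale.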

How the data were processed

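RNA of the 3 PBS mice was measured in 1 colour on spotted long-oligonucleotide arrays, 1 array per mouse, and groups came from the sample titles. Per the file headers, GenePix Pro 4.1.1.4 read the spots at 635 nm, used a local background and applied no normalization. The deposited intensity of a spot is its median minus local background, and the deposited quality score is the flag that marks a spot as found. The deposited log2 matrix equalled the log2 of these intensities plus 1 constant per array (0.09, -0.08 and -0.01 in mice 1, 2 and 3). The number of arrays limits the precision, and nothing says whether the mice shared a litter or cage.

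Linear signals of the found probes were set to the same quantiles on every array, raised to a floor of 1 and put on the log2 scale. Control spots were left out. Probes were named through RefSeq accessions: 23071 had 1 symbol and 12007 had none. A gene was represented by its brightest found probe. A percentile is the share of found genes at or below a gene's signal. Spots not found were set at no less than the 5th percentile of found signals for a bound. No test was run, since there is 1 group, and calls are by a fold of 2.

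Genes were named by rule: the 30 brightest, up to 6 higher and 6 lower in each mouse than in both others, the first members with a probe and the extreme members of each list, and the 10 steadiest of the brightest 25%. Other named list members were picked after their values were seen. The members and lists (62 lists of 1057 genes) were chosen with earlier results of these data known, and 4 lists (prostate, seminal vesicle, epididymis and vas deferens, urothelium) were added after the values were seen. Alternatives used limma 3.58.1 in R 4.3.3 and Python 3.11.15. A few members of the lists are counted but their values are not reported here.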

Additional observations from a re-analysis of the deposited data

How the results depend on the processing

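No paired analysis was possible because the 3 PBS mice are 1 group, with no second group to pair them with. The 10 gene list differences tried kept their direction under 50 alternative values, and each moved by less than the SD over the list's genes. These 10 were chosen after the values were seen. Median centring and the authors' matrix hold the same log2 intensities plus 1 constant per array. Leaving out 1 mouse keeps part of the same difference. These alternatives could therefore hardly reverse a direction, and the normexp correction given below was not tried on the lists. The order of spots kept 86 to 100 of the 100 brightest genes. The number of found probes stayed within 1.5 times of 17293. It was 14286 when the rule was instead a signal of at least 2 SD of the local background on all 3 arrays. The spread and the counts of 2-fold genes moved with the treatment of dim spots. With limma's normexp background correction and an offset of 50, which pulls dim spots together by its construction, the median SD was 0.17 and 331 genes differed by 2-fold between highest and lowest mouse. Those higher then numbered 23, 20 and 99 in mice 1, 2 and 3, and those lower 36, 62 and 30. In the brighter 50% of genes, which tests fewer genes, the median SD was 0.17 and 237 genes differed, with 21, 15 and 58 higher and 27, 52 and 35 lower. Leaving out 1 mouse gave 319 to 588 genes (319 without mouse 3, 437 without mouse 2 and 588 without mouse 1) and a median SD of 0.15 to 0.20, with fewer samples behind each range. Median centring and the authors' log2 matrix left these counts within 1.5 times, but the matrix evened out higher against lower in mouse 3 (188 and 180) and mouse 1 (95 and 102). Signal over background limits the dimmest genes, whose median SD was 0.32.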
